A study of Homo sapiens with 40 samples.

Results

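The EGF receptor, 2 of its sister receptors and 5 of its ligands were followed in HepaRG cells, a human liver cell line. The 8 genes were chosen by name, with earlier results of these data known, out of 56568 gene names, detected or not. They are the ligands EREG, AREG, TGFA, HBEGF and BTC, and the receptors EGFR, ERBB2 and ERBB3. All 8 were measured above 0 in all 40 libraries. Levels are in FPKM, a measure of sequenced fragments that corrects for transcript length and sequencing depth, added up over all transcripts named for the gene.

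The libraries fell into 8 groups of 5: the solvent control, PCB 126 at 100 pM, 10 nM or 1 µM, Roundup (the formulation Grand Travaux +) at 10 µg/L, and glyphosate at the same 10 µg/L or at 1 mg/L or 0.1 g/L. PCB 126 is a dioxin-like polychlorinated biphenyl and a known agonist of the aryl hydrocarbon receptor, glyphosate is a herbicide, and Roundup is a formulated product that contains it. Every group, the control included, held terminally differentiated HPR 116 cells of 1 commercial line, with hepatocyte-like cells beside primitive biliary cells, kept from day 8 to day 14 in a medium that contained 1% DMSO and 2% serum. The labels do not say that the 5 libraries of a group came from separate cultures, so p-values measure the spread between these libraries, which may be technical. In such bulk samples, fewer cells of a type and less RNA per cell cannot be told apart.

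The ligands of this family are made as membrane-anchored precursors, which metalloproteases such as ADAM17 cut to release the active growth factor. A bound receptor pairs with itself or with a sister receptor and drives the RAS and MAP kinase chain, and feedback inhibitors made in response damp the signal. In the liver, EGF receptor signalling is known for its part in regeneration and in the growth and survival of hepatocytes.

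EREG (ENSG00000124882) and AREG (ENSG00000109321) are neighbours on the plus strand of chromosome 4. In GRCh38, EREG spans chr4:74365145-74388749 and AREG spans chr4:74445136-74455005. BTC (ENSG00000174808) lies further along the same arm, on the minus strand, at chr4:74744759-74794523. The other ligand genes are HBEGF (ENSG00000113070) at chr5:140332843-140346603 and TGFA (ENSG00000163235) at chr2:70447284-70554193, both on the minus strand. The receptor genes, all on the plus strand, are EGFR (ENSG00000146648) at chr7:55019017-55211628, ERBB2 (ENSG00000141736) at chr17:39687914-39730426 and ERBB3 (ENSG00000065361) at chr12:56076799-56103505. An antisense gene, EGFR-AS1 (chr7:55179750-55188977), lies inside EGFR, and no source used here says whether strand was used in the quantification.

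The upstream sequences of EREG and AREG are shown because these were the members that differed most between PCB 126 and control. Both are the plus strand of GRCh38.p14 as held by RefSeq, 240 bases that stop 10 bases short of the annotated start, at chr4:74364895-74365134 for EREG and chr4:74444886-74445125 for AREG. Capitals mark GCGTG, the core that the aryl hydrocarbon receptor and its partner ARNT are known to bind, read on either strand (CACGC is the same core on the other strand), and TGACGTCA, the cyclic AMP response element.
EREG: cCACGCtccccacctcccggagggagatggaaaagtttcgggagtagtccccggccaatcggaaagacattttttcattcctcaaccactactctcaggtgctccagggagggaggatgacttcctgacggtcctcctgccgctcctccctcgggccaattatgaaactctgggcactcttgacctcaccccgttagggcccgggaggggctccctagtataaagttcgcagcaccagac
AREG: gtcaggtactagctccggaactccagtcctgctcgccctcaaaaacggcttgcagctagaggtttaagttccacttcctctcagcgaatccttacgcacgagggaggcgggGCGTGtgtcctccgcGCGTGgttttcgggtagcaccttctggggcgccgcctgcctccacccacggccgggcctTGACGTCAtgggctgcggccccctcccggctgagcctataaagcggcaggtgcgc

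On both strands, 4 motifs were searched in windows of these 240 bases for the 7 members with an entry, which had 9 windows in all, as TGFA and EGFR had 2 each. GCGTG was found in 4 of the 9 windows (EREG, AREG, BTC and 1 of the 2 of TGFA), and in 31.2% of all 35116 promoter windows of the same length. EREG held 1 copy at base -249 from the start, and AREG held 2 copies at -139 and -124. The longer form TNGCGTG, which contains GCGTG, was in none of the 9 and in 4.37% of all promoters. TGACGTCA was in AREG alone among the members, at -65, and in 1.57% of all promoters. TGANTCA, a loose form of the AP-1 motif that takes any base at N, was in 2 of the 9 windows and in 6.43% of all promoters. The 2 were that of ERBB2 and the second window of EGFR, which lies inside the gene (RefSeq entry chr7:55109589-55109888), while the window at the start of EGFR held none. These matches describe letters in a window and not sites of binding.

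Libraries differed in how much was detected. The tables hold no read counts and read totals were not used here, but the summed FPKM ran from 255292.4 to 513059.3 and the transcripts above 0 from 71169 to 118592. On the first principal component 5 libraries of the PCB 126 table stood apart (control replicate 5, 10 nM replicates 3 and 5, and 1 µM replicates 1 and 5), and 5 of the herbicide table did (control replicate 5, glyphosate 10 µg/L replicate 5, glyphosate 0.1 g/L replicate 2, and Roundup replicates 4 and 5). The same 5 controls served both tables, with identical values, so all comparisons with control share them. The median log2 difference over all genes tested at 1 µM was -0.26, and it was -0.12 after each library was scaled by its 75th percentile and -0.01 after quantile normalization, so a member's values are read against that shift. Hepatocyte markers were abundant in the controls (summed FPKM 14604 to 21290, ALB 11206 ± 1483, SD, n = 5) and the biliary keratin KRT19 was at 303 ± 85.6 (SD, n = 5), while the endothelial marker CDH5 and the leukocyte marker PTPRC were under 0.05 in every library.

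In the control cells the receptors were far more abundant than most ligands. EGFR, the receptor of all 5 ligands, stood highest at 27.8 ± 6.83 FPKM (SD, n = 5). ERBB3, a neuregulin receptor with little kinase activity of its own, followed at 23.9 ± 4.86, and ERBB2, the partner receptor without a known ligand, at 17.6 ± 6.13 (SD, n = 5 each). The ranges of these receptors overlapped from one to the next. TGFA, a ligand of EGFR, was the main ligand at 7.12 ± 2.21 FPKM, with a range apart from ERBB2 above it and from BTC below it. BTC, which binds EGFR and ERBB4, was at 1.27 ± 0.300, AREG, a weak EGFR ligand, at 1.25 ± 0.338, HBEGF, the heparin-binding ligand, at 1.14 ± 0.349, and EREG, which binds EGFR and ERBB4, at 1.12 ± 0.393 (SD, n = 5 each), and the ranges of these neighbours overlapped. Of the summed FPKM of the 5 ligands in controls, TGFA held 59.2% ± 3.70 and each of the others between 9.39% and 11.0% (mean over 5 libraries).

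**Figure D1:**
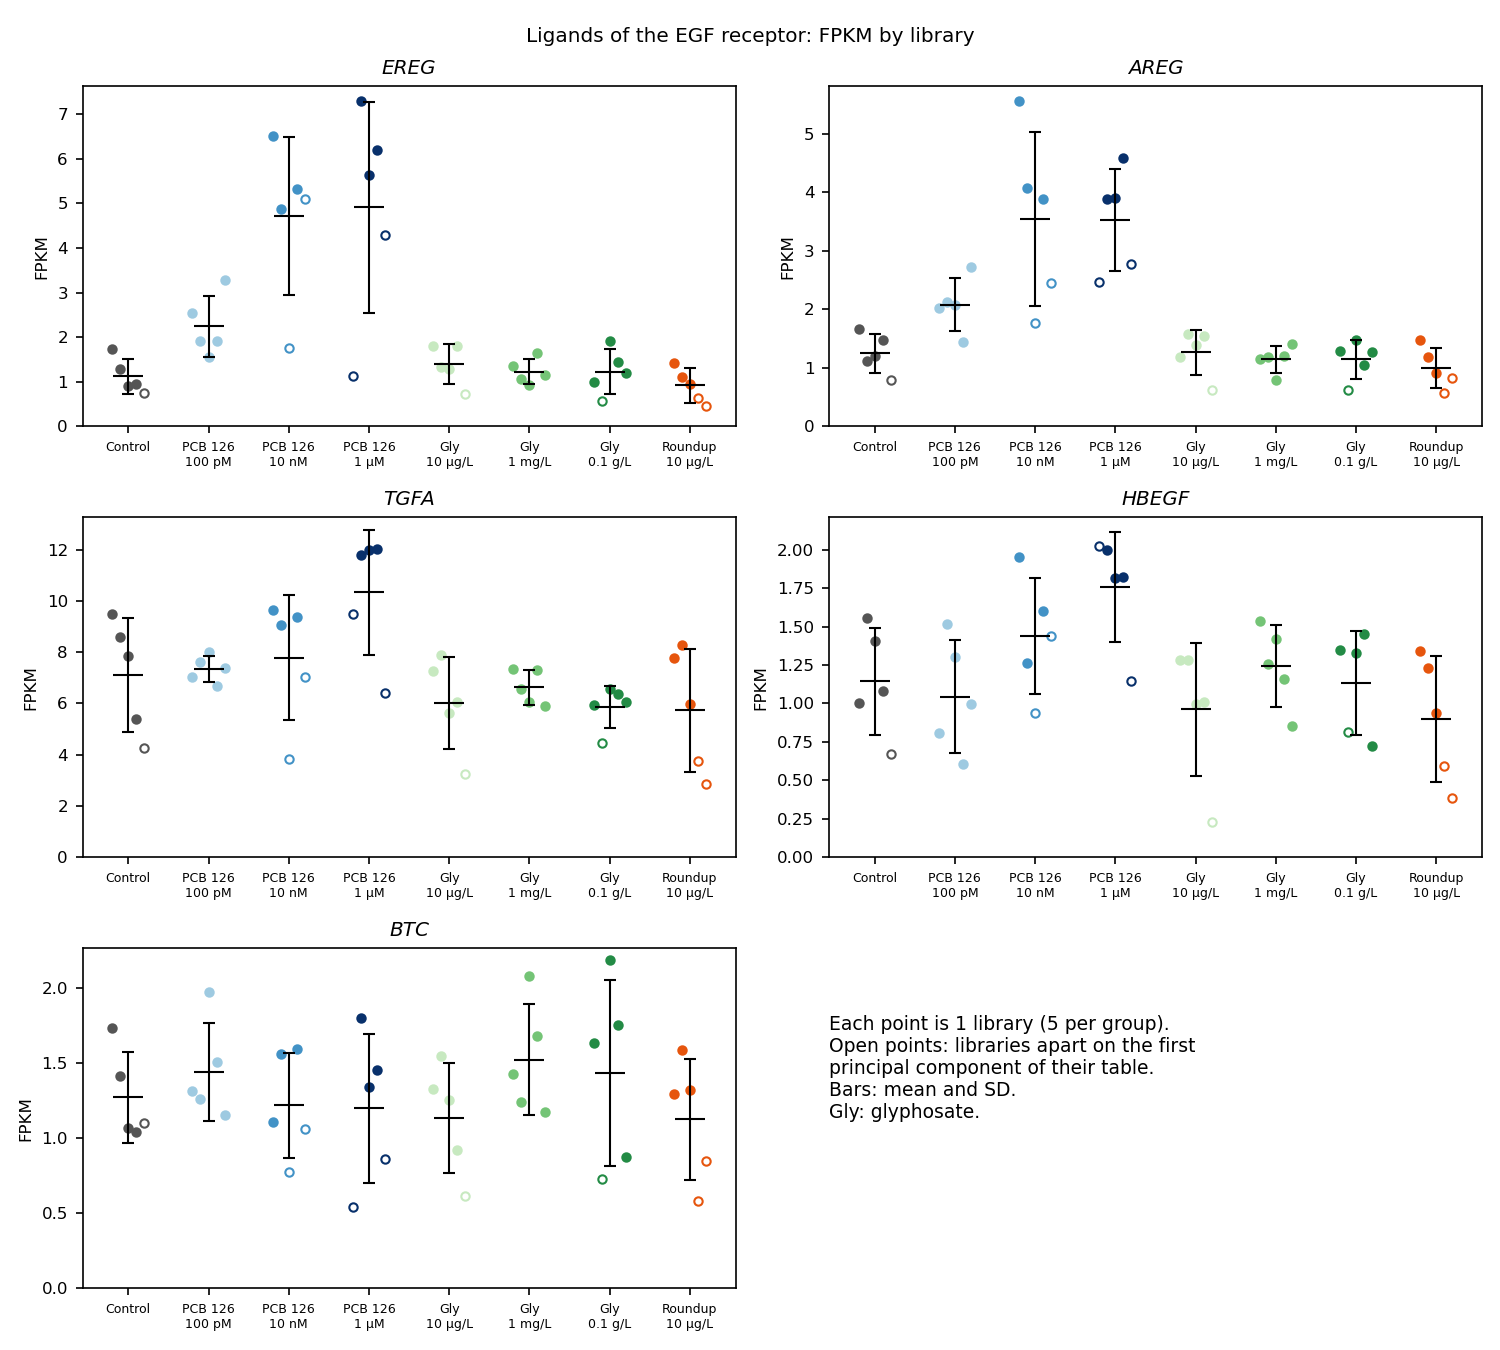
FPKM of the 5 ligands (y axis, linear from 0) in the 40 libraries of 8 groups (x axis). Points are libraries, bars are the mean and SD of 5, and open points are the libraries that stood apart on the first principal component. All 5 libraries at 10 nM lie above every control for EREG and AREG, as do all 5 at 1 µM for AREG and 4 of 5 for EREG.

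EREG was about 4-fold higher at the 2 upper concentrations of PCB 126 than in controls. The 5 controls had 1.73, 1.29, 0.914, 0.938 and 0.743 FPKM. The 100 pM libraries had 2.54, 1.91, 1.55, 1.90 and 3.28 FPKM, the 10 nM libraries 6.50, 4.87, 1.76, 5.33 and 5.10 FPKM, and the 1 µM libraries 1.13, 7.29, 5.63, 6.19 and 4.29 FPKM. Every 10 nM library was above the highest control, the lowest of them only just, while 4 of the 5 libraries at 100 pM and 4 of 5 at 1 µM were. Relative to control the means were 4.37-fold at 1 µM, 4.20-fold at 10 nM and 1.99-fold at 100 pM.

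At 1 µM the log2 difference of EREG was 1.36 ± 0.32 (SE) on the log2(FPKM + 1) scale, with an adjusted p of 0.0202 among the 9755 genes whose FPKM had a variance above 1 over the 20 libraries, and 0.0853 with all 43478 genes kept (limma). EREG had a variance of 0.164 over controls and herbicide groups, and so passed that filter only through the PCB 126 groups in which it was high. The exact 2-sided permutation test over the 252 splits of 5 against 5 libraries gave p = 0.0238. At 10 nM the difference was as large, 1.37 ± 0.32, but its adjusted p was 0.0849 (limma), whereas the exact permutation test gave p = 0.00794, the smallest that 5 against 5 can give. At 100 pM the difference was 0.60 ± 0.32 with an adjusted p of 1 (limma), and the exact permutation p was 0.0159. The change per concentration step, from control over 100 pM and 10 nM to 1 µM, was 0.48 ± 0.10 with an adjusted p of 0.00496, and 0.0290 with all genes kept (limma). The F-test over the 4 groups gave an adjusted p of 0.0362, and 0.177 with all genes kept (limma). Between 1 µM and 10 nM EREG differed by -0.014 ± 0.32 (adjusted p = 1.00, limma).

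AREG, the neighbour of EREG on chromosome 4, was higher at the same concentrations, with smaller differences. The controls had 1.67, 1.12, 1.20, 1.47 and 0.788 FPKM. The 100 pM libraries had 2.02, 2.12, 2.08, 1.45 and 2.73 FPKM, the 10 nM libraries 5.57, 4.07, 1.77, 3.89 and 2.46 FPKM, and the 1 µM libraries 2.47, 3.89, 3.91, 4.59 and 2.78 FPKM. All libraries at 10 nM and at 1 µM were above every control, while at 100 pM 1 of 5 fell among them. Over all 9755 genes tested, 0.267% were higher without overlap at 10 nM and 0.707% at 1 µM, against 0.113% at 100 pM. Relative to control the means were 2.82-fold at 1 µM, 2.84-fold at 10 nM and 1.66-fold at 100 pM.

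The log2 difference of AREG at 1 µM was 1.00 ± 0.24 (SE) with an adjusted p of 0.0264, and 0.0356 with all genes kept (limma), and the exact permutation test gave p = 0.00794. At 10 nM it was 0.96 ± 0.24 with an adjusted p of 0.155 (limma) and again an exact permutation p of 0.00794. At 100 pM it was 0.45 ± 0.24, with an adjusted p of 1 (limma) and an exact permutation p of 0.0238. The change per step was 0.35 ± 0.08 (adjusted p = 0.00609, and 0.0113 with all genes kept, limma), and the F-test gave an adjusted p of 0.0581, above the threshold of 0.05, and 0.0880 with all genes kept. AREG too passed the filter only through the PCB 126 groups, with a variance of 0.0998 over the others. The difference between 1 µM and 10 nM was 0.035 ± 0.24 (adjusted p = 1.00, limma).

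At 1 µM, EREG and AREG were thus the 2 called members of the 6 tested, beside 1.87% of all genes tested (0.646% higher and 1.22% lower). At 10 nM none of the 6 was called, beside 0.205% of all genes (0.144% higher and 0.0615% lower), where limma gave EREG and AREG among 473 genes an unadjusted p under 0.05, and an ordinary model that took library size as a term called both, beside 0.472% of genes. At 100 pM none was called, beside 0.0%, with 116 genes and no member at an unadjusted p under 0.05 in limma, and 451 genes, EREG and AREG among them, in the ordinary model. Between 1 µM and 10 nM none was called, beside 0.0%, with 324 genes and no member at an unadjusted p under 0.05 in limma, and 883 genes, EGFR and TGFA among them, in the ordinary model. The F-test called EREG, beside 1.39% of all genes, and the trend EREG and AREG, both higher, beside 3.78% (0.923% higher and 2.86% lower). With all 43478 genes kept, 1 member (AREG) was called at 1 µM, beside 0.398% of genes, none at 10 nM, beside 0.0322%, none in the F-test, beside 0.207%, and 2 in the trend (EREG and AREG), beside 0.911%.

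Single libraries weighed on the calls at 1 µM. Without any one of control replicates 3 and 4 or 1 µM replicates 2, 3 and 4, the adjusted p of EREG lay between 0.0541 and 0.0617 (limma), and without those or control replicate 2 that of AREG lay between 0.0555 and 0.0711. In a fit of the 1 µM and control libraries alone it was 0.0578 for EREG and 0.0735 for AREG (limma). The trend of both genes kept an adjusted p under 0.05 in each of the 20 fits that left out 1 library. At 10 nM, leaving out replicate 3, the lowest of its group for both genes, gave 0.0104 for EREG and 0.0184 for AREG (limma), and leaving out 1 µM replicate 1 gave 0.00792 for EREG.

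Without the 5 libraries that stood apart, EREG was 5.23-fold and AREG 3.02-fold higher than control at 1 µM, and 4.57-fold and 3.30-fold higher at 10 nM. With 3 libraries against 4, the exact permutation p was 0.0286 in each of these cases, the smallest of 35 splits. The libraries left out include 1 µM replicate 1, the lowest of its group for both genes. In the filtered fit without them the adjusted p at 1 µM was 9.85e-05 for EREG and 0.000763 for AREG (limma), beside 6.34% of 8298 genes called. With all genes kept it was 0.000434 and 0.00186 (limma). At 10 nM it was 0.00113 and 0.00174 (limma), beside 0.675% called, and 0.00525 and 0.00568 with all genes kept. Scaling by the 75th percentile gave 0.00152 for EREG and 0.000274 for AREG at 1 µM (limma), beside 6.73% of 8445 genes called. With scaling and all genes kept, the adjusted p was 0.00728 for EREG and 0.000905 for AREG (limma). Over all alternatives the adjusted p at 1 µM ran from 5.92e-05 to 0.120 for EREG and from 3.92e-05 to 0.0735 for AREG (limma, with the ordinary model among them).

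More of all genes were called in those settings too. At 10 nM, where EREG and AREG were called in each, 0.805% of genes were called with scaling and 1.89% with quantile normalization. The F-test called 2 members beside 5.49% of genes with scaling, 4 beside 7.32% with quantile normalization and 2 beside 3.31% without the libraries apart. The trend called 3 members (TGFA the third) beside 9.17% with scaling and 7.15% without the libraries apart, and 4 (with EGFR) beside 12.7% with quantile normalization. The ordinary model called 3 members beside 5.11% at 1 µM and 6.24% in the trend, and 2 beside 3.34% in the F-test. Between 1 µM and 10 nM no member was called, beside 0.0118% with scaling and 0.0482% without the libraries apart.

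Replicate 1 at 1 µM was the library in which EREG lay among the controls, at 1.13 FPKM. Of the 40 libraries only 10 nM replicate 5 had fewer transcripts above 0 (71169 against 75785). Its levels of CYP1A1, a detoxifying enzyme and a textbook target of the aryl hydrocarbon receptor, and of TIPARP, an ADP-ribosyltransferase and another such target, were 85.2 and 20.9 FPKM, above every control (0 to 7.69 and 2.30 to 5.84) and below the other libraries at 1 µM (214 to 389 and 41.4 to 73.6). CYP1A2, a further target, was also below the others of its group, at 47.1 FPKM against 142 to 260. CYP1B1, another target, was not, at 168 FPKM against 27.9 to 227 in the others. AHRR was at 1.63 FPKM, within the 1.20 to 5.28 of the others, and NQO1, at 1.07, was below their 2.31 to 2.61.

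At 100 pM the libraries were uneven. CYP1A1 was at 71.0, 36.4, 3.21, 1.09 and 319 FPKM in replicates 1 to 5, and replicate 5, with the highest CYP1A1, also had the highest EREG and AREG of its group. Both genes were also above every control in replicates 1 and 2, as were AREG in replicate 3 and EREG in replicate 4, where CYP1A1 was at 3.21 and 1.09. What set replicate 5 apart was not tested.

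**Figure D2:**
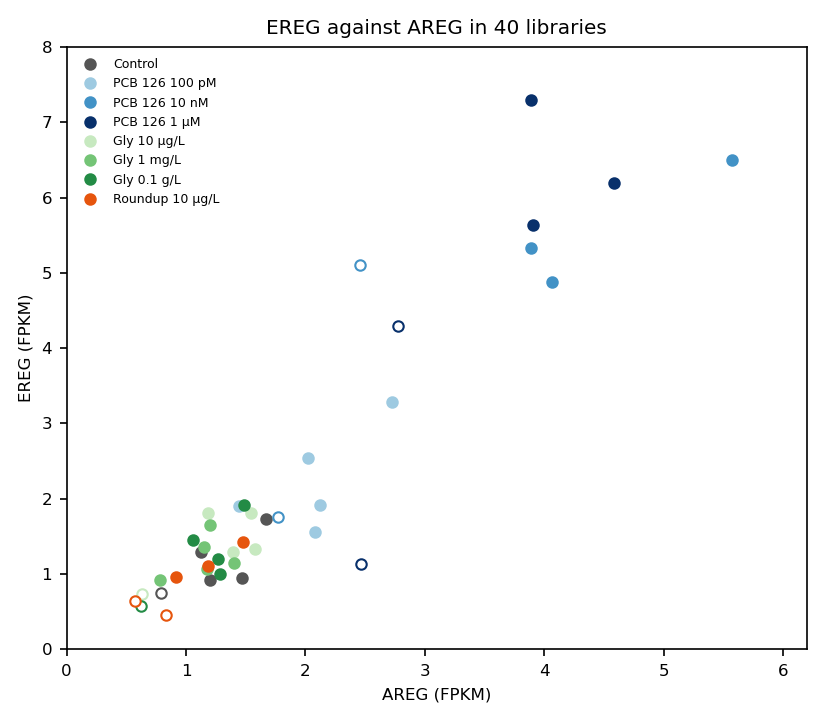
EREG against AREG, both in FPKM on linear axes, in the 40 libraries (points, coloured by group, with open points for libraries that stood apart). Controls and herbicide libraries lie together under 2 FPKM on both axes, 8 of the 10 libraries at 10 nM and 1 µM lie above 4 FPKM of EREG, and the 1 µM library at 1.13 FPKM of EREG lies off this line.

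Over the 40 libraries EREG and AREG had a Pearson correlation of 0.92, and of 0.74 for deviations from the group means. Each pair of values comes from 1 library, and members that were not called had such correlations too, such as TGFA and EGFR (0.85, and 0.93 within groups). Of 10027 genes compared, those with patterns most like EREG were TMEM138, a transmembrane protein of the cilium (r = 0.950), UGCG, the glucosylceramide synthase (0.936), and TIPARP (0.930). For AREG they were TRIM15, a tripartite motif protein (0.932), ALDH3A1, an aldehyde dehydrogenase (0.932), and DEPTOR, an mTOR-binding protein (0.929). These 6 genes were all higher at 1 µM than in controls, from 5.53 to 15.5 FPKM for TMEM138 and from 121 to 446 FPKM for ALDH3A1 (means of 5). The correlations are descriptions over libraries that share treatments.

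Both genes were read mostly from 1 transcript. ENST00000395748, with 6 exons, held on average 88.3% of AREG, and rose from 1.06 ± 0.344 FPKM in controls to 3.44 ± 0.824 at 1 µM (SD, n = 5 each), with an adjusted p of 0.0343 for the trend and 0.0990 at 1 µM (limma over 21181 transcripts, 117 of them called at 1 µM). ENST00000244869, with 5 exons, held on average 64.1% of EREG, but from 0 to 100% in single libraries. Its mean was 0.687 ± 0.527 FPKM in controls and 4.38 ± 2.12 at 1 µM (SD, n = 5 each), with an adjusted p of 0.228 at 1 µM and 0.0928 for the trend (limma). It was listed at 0 in some libraries where other EREG transcripts were not, so the split between EREG transcripts is uncertain.

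TGFA was 1.45-fold higher at 1 µM than in controls, a difference that did not pass the test on the values as deposited. The controls had 9.50, 8.59, 7.85, 5.40 and 4.25 FPKM, and the 1 µM libraries 9.48, 11.8, 12.0, 12.0 and 6.41 FPKM. Of the 5 libraries at 1 µM, 3 were above every control, and the lowest 2 were the libraries that stood apart. The log2 difference was 0.50 ± 0.26 (adjusted p = 0.402, limma), and the exact permutation p was 0.0873. At 100 pM and 10 nM TGFA was at 7.34 ± 0.508 and 7.79 ± 2.45 FPKM (SD, n = 5 each), with log2 differences of 0.085 and 0.11 that changed sign when control replicate 5 was left out.

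The TGFA result depended on how libraries were scaled. After scaling by the 75th percentile the means were 6.42 ± 1.13 in controls and 10.7 ± 2.20 at 1 µM (SD, n = 5), the exact permutation p was 0.0159, and the adjusted p was 0.0142 (limma), with 6.73% of genes called. Without the libraries apart the adjusted p was 0.0341 (limma), with 6.34% called, and the exact permutation p was 0.0571. Over all alternatives the adjusted p of TGFA at 1 µM ran from 0.00116 to 0.707. Its share of the summed ligands was nonetheless lower at 1 µM, 48.1% ± 7.43 against 59.2% ± 3.70 in controls (SD, n = 5), as EREG held 21.8% against 9.39% and AREG 16.3% against 10.7%.

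HBEGF was 1.54-fold higher at 1 µM. The controls had 1.00, 1.55, 1.41, 1.08 and 0.671 FPKM, and the 1 µM libraries 2.03, 1.99, 1.81, 1.82 and 1.14 FPKM. Of these, 4 of 5 were above every control. The exact permutation p was 0.0397, and 0.00794 on scaled values, where the groups did not overlap (2.16% of genes). HBEGF had a variance under 1 and entered only the fit of all genes, where its log2 difference was 0.37 ± 0.14 (adjusted p = 0.440, limma), and 0.48 ± 0.13 after scaling (adjusted p = 0.0809). It was at 1.05 ± 0.367 FPKM at 100 pM and 1.44 ± 0.377 at 10 nM (SD, n = 5 each).

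Against 1.27 ± 0.300 FPKM in controls, BTC was at 1.44 ± 0.324 with 100 pM, at 1.22 ± 0.351 with 10 nM and at 1.20 ± 0.497 with 1 µM (SD, n = 5 each). The groups overlapped at each concentration, and the exact permutation p ran from 0.405 at 100 pM to 0.802 at 10 nM. The log2 difference at 1 µM was -0.068 ± 0.15 (adjusted p = 0.946, limma over all genes).

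**Figure D3:**
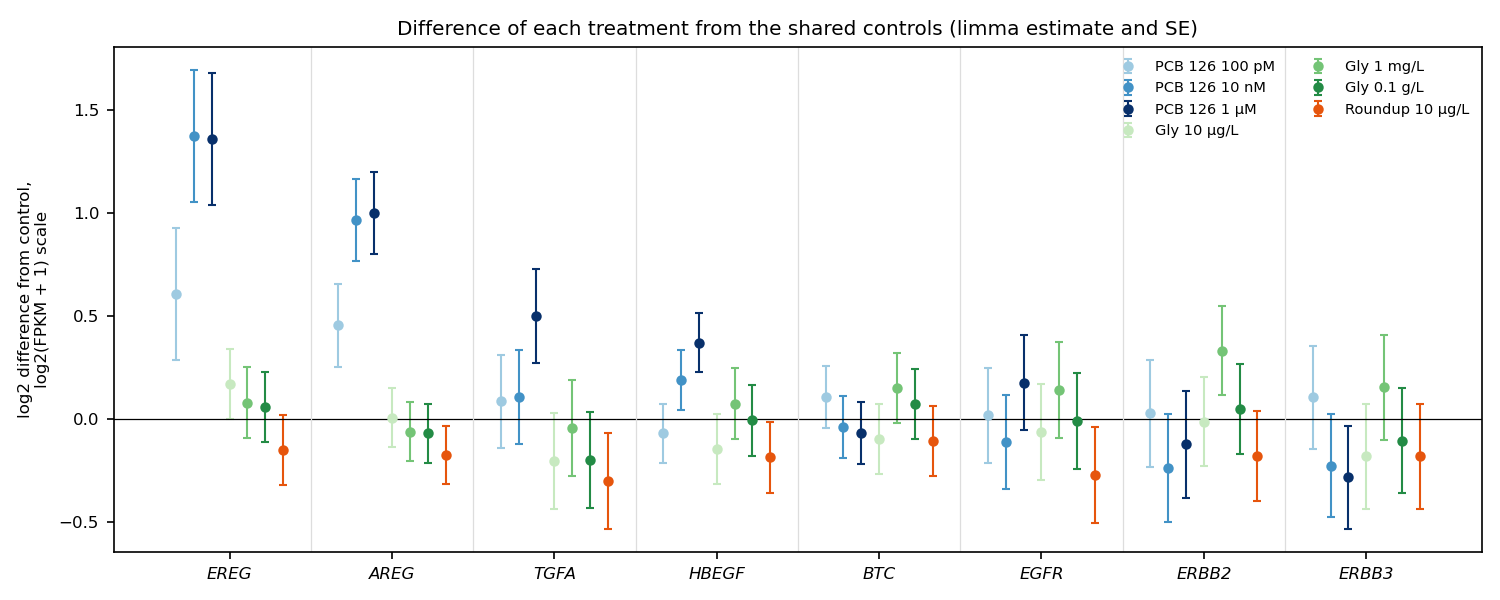
Log2 difference from control on the log2(FPKM + 1) scale (y axis) of the 8 members (x axis), for the 3 concentrations of PCB 126, the 3 of glyphosate and Roundup. Error bars are 1 SE (limma). All 8 members are shown from the fit with all genes kept and all groups of a table, so bars can differ from the SE in the text. EREG reaches 1.37 and AREG 1.00, while no receptor is further than 0.33 from 0 in either direction.

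The receptors did not pass the test at any concentration. EGFR had 31.0, 35.9, 28.9, 25.3 and 17.7 FPKM in controls, and 27.6, 36.4, 36.2, 32.7 and 22.7 FPKM at 1 µM. The groups overlapped, with a ratio of the means of 1.12, a log2 difference of 0.17 ± 0.26 (adjusted p = 0.756, limma) and an exact permutation p of 0.421. On scaled values the ratio was 1.28 with an exact permutation p of 0.0397, and the adjusted p was 0.172 (limma), but 0.0106 after quantile normalization, with 11.1% of genes called. The highest scaled value at 1 µM, 38.6, was that of replicate 1, where a short transcript held 58.8% of EGFR. At 100 pM and 10 nM EGFR was at 27.5 ± 2.59 and 26.4 ± 9.14 FPKM (SD, n = 5 each).

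ERBB2 was at 16.0 ± 4.32 FPKM at 1 µM against 17.6 ± 6.13 in controls (SD, n = 5 each). The control value rested in part on replicate 3, at 28.1 FPKM, when the other 4 lay between 12.4 and 16.8. The log2 difference was -0.12 ± 0.28 (adjusted p = 0.841, limma) and its sign turned to 0.033 with 75th percentile scaling, 0.065 with quantile normalization and 0.050 without control replicate 3. At the same locus, 2 assembled transcripts without a gene name, left out of these sums, were at 6.55 ± 6.03 FPKM in controls and 1.28 ± 1.63 at 1 µM (SD, n = 5 each). With the sums taken over whole assembled loci, the log2 difference was -0.45 (adjusted p = 0.404, limma).

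ERBB3 was at 20.1 FPKM at 1 µM against 23.9 in controls, with a ratio of 0.840. The 1 µM libraries had 10.4, 26.7, 22.7, 24.2 and 16.4 FPKM and the controls 27.3, 28.6, 24.9, 22.5 and 16.3, so the ranges overlapped. The log2 difference was -0.28 ± 0.27 (adjusted p = 0.630, limma) and the exact permutation p 0.310. The lowest library, replicate 1, also had the lowest BTC of the PCB 126 libraries, 0.541 FPKM.

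**Figure D4:**
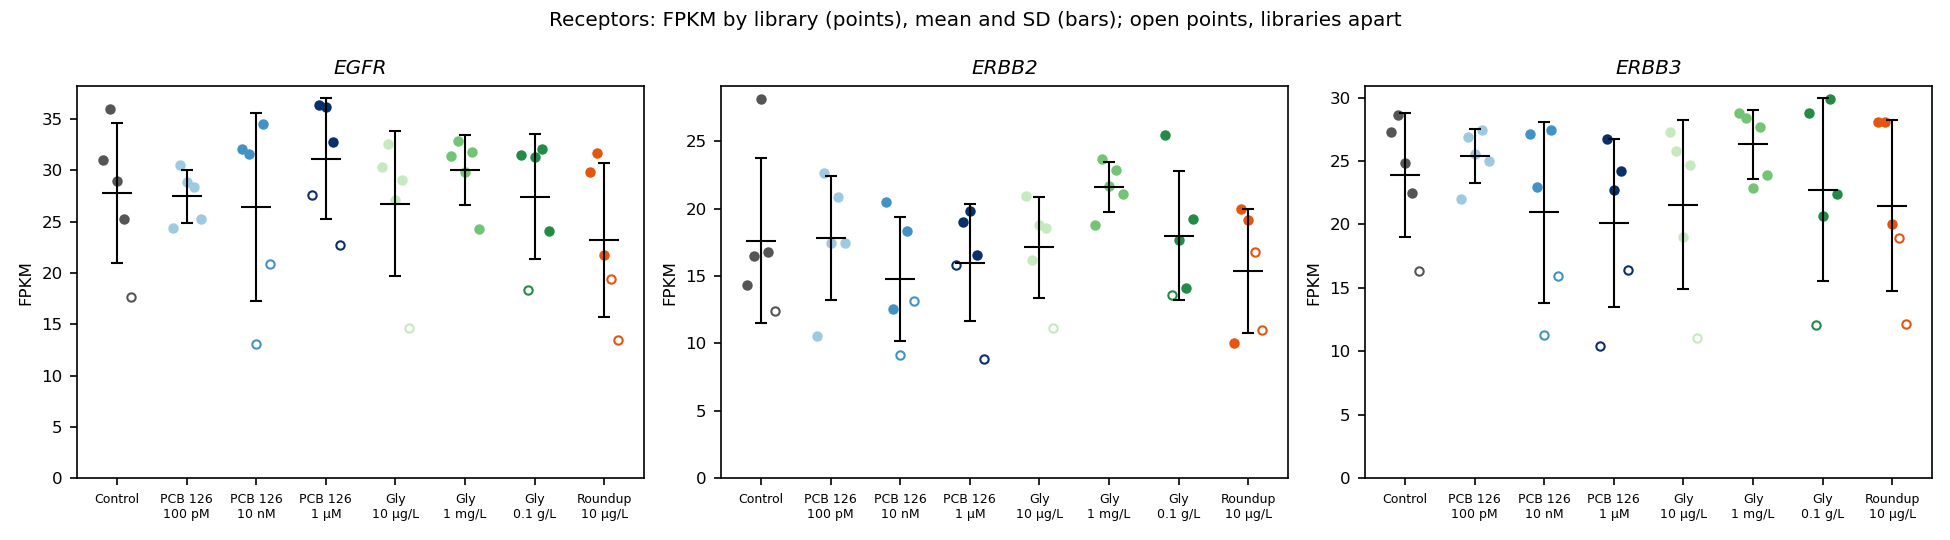
FPKM of the 3 receptors (y axis, linear from 0) in the 40 libraries of 8 groups (x axis). Points are libraries, bars are the mean and SD of 5, and open points are libraries that stood apart. The ranges of all groups overlap with the controls, and ERBB2 in control replicate 3 lies at 28.1 FPKM.

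One library differed in the makeup of EGFR. The full-length transcript ENST00000275493, with 28 exons and 9821 bases, held on average 88.9% of EGFR, and the short ENST00000420316, with 10 exons and 1570 bases, 6.06%. In 1 µM replicate 1 the short transcript was at 16.2 FPKM, 58.8% of EGFR, and the full-length one at 7.55. The next highest of the 40 libraries, glyphosate 1 mg/L replicate 3, had 3.49 FPKM and 11.7%. The full-length transcript was at 25.1 ± 11.1 FPKM at 1 µM and 25.2 ± 6.56 in controls (SD, n = 5 each), with a log2 difference of -0.12 (adjusted p = 0.944, limma over transcripts). What raised the short transcript in that library was not tested.

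**Figure D5:**
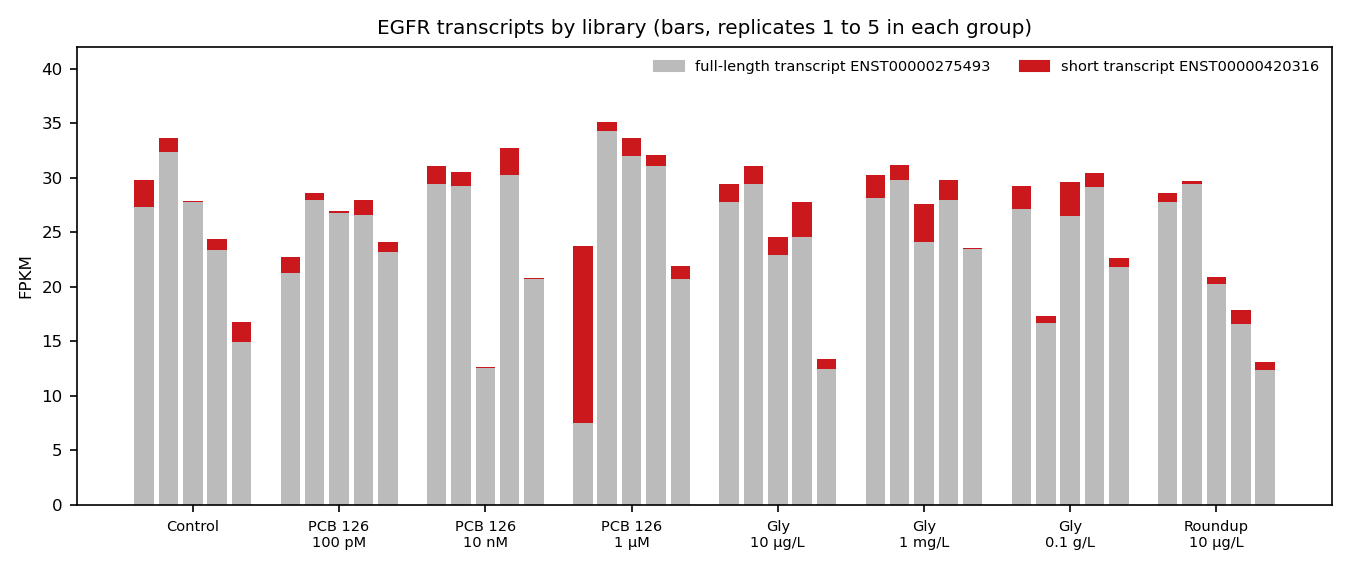
FPKM of the full-length EGFR transcript (grey) and of the short transcript (red), stacked on a linear axis from 0, in replicates 1 to 5 of each of the 8 groups (x axis). The short transcript reaches 16.2 FPKM in 1 µM replicate 1 and at most 3.49 FPKM in the other 39 libraries.

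No member was called with a herbicide, although single libraries lay outside the range of the controls. From the lowest to the highest glyphosate concentration EREG was at 1.39 ± 0.449, 1.23 ± 0.283 and 1.23 ± 0.501 FPKM, and it was at 0.917 ± 0.383 with Roundup (SD, n = 5 each). AREG was at 1.27 ± 0.387, 1.14 ± 0.224 and 1.14 ± 0.327 FPKM in the same glyphosate groups, and at 0.996 ± 0.346 with Roundup. No library range of a member was apart from that of the group it was compared with, and the order of the group means for EREG and AREG had overlapping neighbours throughout.

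Over the 5 herbicide comparisons, Roundup against glyphosate at 10 µg/L included, the ratios of the means ran from 0.659 to 1.24, and the lowest of 40 exact permutation p-values was 0.127. The largest of these differences was EREG, 0.917 FPKM with Roundup against 1.39 with glyphosate at the same 10 µg/L, and the libraries of these groups overlapped. ERBB2 was at 21.6 ± 1.87 FPKM with glyphosate at 1 mg/L (SD, n = 5), 1.23-fold the controls, with a log2 difference of 0.33 ± 0.24 (adjusted p = 0.963, limma) and an exact permutation p of 0.135. In limma none of the 4 members that passed the variance filter was called in any of the 5 comparisons, beside 0.0% of 9533 genes in each, and the members' adjusted p ran from 0.902 to 1. At an unadjusted p under 0.05 limma had 84 to 165 genes and no member, and the ordinary linear model had 213 to 674 genes and 1 member, EGFR with glyphosate at 0.1 g/L, where its exact permutation p was 0.968 as deposited and 0.0476 on scaled values. A p that misses the threshold does not show that these groups were alike.

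All 72 comparisons of a member between groups were tested by permutation, and 7 had an unadjusted exact p under 0.05. They were EREG and AREG at each of the 3 PCB 126 concentrations and HBEGF at 1 µM. No share of all genes was computed for the exact test, so these 7 cannot be weighed against it. The members were also chosen with earlier results of these data known, so these p-values are not independent of that choice. Among the 9755 genes tested in limma, 1322 had an unadjusted p under 0.05 with 1 µM, 473 with 10 nM and 116 with 100 pM. No member was among those 116, and HBEGF was not in that fit.

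The rest of the pathway was followed through gene lists. Of 7 other family genes 3 were tested at 1 µM and none was called. NRG1, a ligand of ERBB3 and ERBB4, was the most abundant of them at 8.92 ± 3.23 FPKM in controls and 5.67 ± 2.27 at 1 µM (SD, n = 5, adjusted p = 0.407, limma). EGF itself was at 3.23 FPKM in controls, ERBB4 was at most at 0.406 FPKM in any library and the neuregulin NRG3 was above 0 in 1 library only, at 0.0163 FPKM.

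None of 10 tested genes for ligand release and trafficking was called at 1 µM, out of 12 listed. ADAM15, a metalloprotease and the most abundant of them, was at 54.2 ± 13.9 FPKM in controls and 63.5 ± 12.8 at 1 µM (SD, n = 5, adjusted p = 0.671, limma). Of 14 tested genes of the adaptors and the RAS and MAP kinase chain, none was called, and the adaptor SHC1 was at 60.8 ± 24.4 and 52.2 ± 22.5 FPKM. The median log2 difference was -0.26 in the first list and -0.15 in the second, beside -0.26 over all genes tested. After quantile normalization 1 gene of each list was called higher at 1 µM, beside 11.1% of all genes called.

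Of 13 tested feedback inhibitors, out of 19 listed, none was called at 1 µM. Over the concentration steps, where 2.86% of all genes were called lower, 1 of the 13 fell. This was SPRY1, an inhibitor of receptor tyrosine kinase signalling, at 2.22 ± 1.74 FPKM in controls and 0.338 ± 0.359 at 1 µM (SD, n = 5), with a change per step of -0.39 (adjusted p = 0.0392, limma). ERRFI1, which binds and blocks the EGFR kinase, was at 23.3 ± 8.61 and 19.7 ± 8.12 FPKM (adjusted p = 0.711, limma). After scaling by the 75th percentile, 1 inhibitor was called higher and 2 were called lower at 1 µM, beside 6.73% of genes called. With quantile normalization 2 were higher and 1 lower, beside 11.1% of genes called. Of 14 tested transcriptional targets of EGF receptor signalling, out of 18, none was called, and the survival factor MCL1 was at 51.9 ± 15.4 and 45.8 ± 11.9 FPKM. After quantile normalization 4 of the 14 were called, all higher, beside 11.1% of all genes called and 5.45% called higher. The list's median log2 difference was -0.12.

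Of 5 tested targets of the aryl hydrocarbon receptor, out of 6 listed, 4 were called at 1 µM, all higher: CYP1A1 from 2.33 ± 3.40 to 235 ± 108 FPKM, CYP1A2 from 0.982 ± 0.606 to 154 ± 75.8, TIPARP from 4.58 ± 1.52 to 53.3 ± 21.9 and CYP1B1 from 14.4 ± 6.65 to 107 ± 86.2 (SD, n = 5 each). Their adjusted p ran from 2.29e-05 for CYP1A2 to 0.00797 for CYP1B1 (limma), beside 0.646% of all genes called higher. The log2 differences of EREG (1.36) and AREG (1.00) on the same scale were smaller than those of these 4, of which the smallest was CYP1B1 at 2.51 ± 0.53 (SE). AHRR and NQO1, also on the list, were not called. AHRR ran from 1.20 to 5.28 FPKM at 1 µM and from 1.15 to 2.21 in controls. NQO1 ran from 1.07 to 2.61 FPKM at 1 µM and from 1.13 to 4.07 in controls.

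Markers of the cell types moved in the same comparison. Of 9 hepatocyte markers 2 fell at 1 µM and 7 were not called, beside 1.22% of all genes called lower. The 2 were the thyroid hormone carrier TTR, from 361 ± 86.4 to 120 ± 42.2 FPKM, and the fibrinogen chain FGB, from 1559 ± 477 to 638 ± 255 (SD, n = 5 each). The summed level of the 9 ran from 5714 to 14520 FPKM at 1 µM and from 14604 to 21290 in controls. The highest sum at 1 µM was thus only just below the lowest control. These sums, of which albumin was the largest part, were not scaled and not tested. At 10 nM these sums ran from 8572 to 22641 FPKM and overlapped the controls. Over the concentration steps 2 more hepatocyte markers fell (limma), the iron carrier TF from 454 to 201 FPKM and albumin (ALB) from 11206 to 5570 (means of controls and of 1 µM). Over these steps 2.86% of all genes were called lower and 0.923% higher. Of 8 biliary and progenitor markers 4 were tested and none was called, with sums of 165 to 285 FPKM at 1 µM against 279 to 535 in controls, and SPP1 (osteopontin) fell over the steps, from 47.8 to 21.9 FPKM. Of 7 mesenchymal markers 6 were tested and 1 fell, the collagen chain COL3A1 from 12.5 ± 3.63 to 0.576 ± 0.274 FPKM (SD, n = 5 each). Over the steps the receptor PDGFRB also fell, from 5.16 to 2.60 FPKM, and the proteoglycan DCN rose, from 4.95 to 10.7. The mesenchymal sums overlapped, 50.8 to 190 FPKM at 1 µM and 41 to 91.8 in controls, with COL1A2 under 0.05 in every library. Of 6 endothelial and blood cell markers 2 were tested and none was called, with sums of 3.08 to 8.00 FPKM at 1 µM and 2.55 to 10.3 in controls. After scaling by the 75th percentile 5 hepatocyte markers and 1 biliary marker were called lower at 1 µM, beside 6.73% of all genes called. Of the mesenchymal markers 2 were then higher and 2 lower. After quantile normalization, beside 11.1% of all genes called, 3 hepatocyte markers were lower and 1 higher, and 1 biliary marker was lower. Of the mesenchymal markers 3 were higher and 2 lower in that setting. The part of cell type makeup in the levels of EREG and AREG was not tested.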

How the data were processed

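RNA of 40 HepaRG libraries was depleted of rRNA and made into directional libraries from 20 ng each. Per the labels and the study's methods, the authors aligned reads to GRCh38 with HISAT2 and assembled and quantified transcripts of each library with StringTie on an Ensembl annotation (versions are not given in the sources used here). They deposited FPKM of 234960 transcripts in 2 tables that share the 5 controls. Deposited columns with values below 0 (4 values in one table, 6 in the other) were treated as a score and those values set to 0. Replicate numbers follow accession order.

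FPKM were summed per gene name. limma 3.58.1 (R 4.3.3) was fitted per table to log2(FPKM + 1), with all groups, for genes with a variance of FPKM above 1, and p-values were adjusted by Benjamini-Hochberg over all genes tested (threshold 0.05). The pseudocount of 1 understates the change of low genes. Single members were compared by exact 2-sided permutation tests of mean log2 values. The fit was tested on simulated data. Named were all members, every list gene past the threshold, each list's gene with the highest control level, and the 3 genes most like each called member. Other family genes, and genes given beside a result, were named after their values were seen. Members and lists were chosen with earlier results of these data known. Alternatives covered the pseudocount, filter, scaling, model, block, feature, and libraries left out. FPKM carry no counts, so no counting interval was given.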

Additional observations from a re-analysis of the deposited data

Results flagged for a closer look

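In 64 sets of 5 libraries (8 members in 8 groups), 4 held a library beyond Dixon's limit (95%) for the gap to its nearest neighbour over the range, where chance gives about 1 in 20. TGFA with glyphosate at 0.1 g/L was lowest in replicate 2, at 4.47 FPKM against 5.95 for the next. HBEGF at 1 µM PCB 126 was lowest in replicate 5, at 1.14 FPKM against 1.81, and with glyphosate at 10 µg/L in replicate 5, at 0.228 FPKM against 0.998. These 3 libraries were among those that stood apart on the first principal component of their table. ERBB2 in controls was highest in replicate 3, at 28.1 FPKM against 16.8, and that library did not stand apart.

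An assembled transcript without a gene name at the ERBB3 locus, which the sums leave out, had a mean of 0.862 FPKM with glyphosate at 10 µg/L, from 1 library at 4.31, and was listed at 0 in all controls. The gene PA2G4 also overlaps this locus.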

How the results depend on the processing

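EREG and AREG were higher than control at all 3 PCB 126 concentrations under every alternative run, and the trend called both in all of them. The number of members called varied. At 10 nM it was 0 as reported, 1 (EREG) in a fit of 2 groups and by assembled locus, and 2 (EREG and AREG) with 75th percentile scaling, quantile normalization, the ordinary model with a library-size term, 1 fit of all 40 libraries, without the libraries apart, and in both alternatives chosen after seeing the data (no filter with scaling, and no filter without the libraries apart). Leaving out 1 library gave 0 to 2. At 1 µM it was 2, and became 1 (AREG) without the filter and for the largest transcript of each gene, 0 in a fit of 2 groups, 3 (with TGFA) with 75th percentile scaling (with or without the filter), the library-size term and without the libraries apart, and 4 (with TGFA and EGFR) after quantile normalization, and leaving out 1 library gave 0 to 2. The F-test called 1, and 2 with a pseudocount of 0.1, 75th percentile scaling, the library-size term, 40 libraries, assembled locus, without the libraries apart, and both added alternatives, 4 after quantile normalization, and 0 without the filter or for the largest transcript. Leaving out 1 library gave 0 to 2. The trend called 2, and 3 with 75th percentile scaling, the library-size term and without the libraries apart (with or without the filter), and 4 after quantile normalization and with no filter and scaling together. The 100 pM, 1 µM against 10 nM and 5 herbicide results stayed at 0 members in every alternative run.

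With the replicate block (runs of library numbers) the F-test called 2 members and no other count of members changed, while calls over all genes rose from 182 to 357 at 1 µM and from 20 to 37 at 10 nM. The labels give the runs no meaning, and not every correlation within a run passed 0.1, so the runs were not taken as a pairing. Of run 1 of the herbicide table, 9 of 10 did, and of run 4 of the PCB 126 table, 4 of 6 did. Among 5 possible runs, 14 of 20 and 18 of 25 libraries correlated best with their own, more than an even spread over runs would give. That is a hint from the data only, and the main fits and permutation tests took no account of runs. Correlations of deviations within a run were from -0.056 to 0.17 in the PCB 126 table and -0.17 to 0.36 in the herbicide table.

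The sign of TGFA turned at 100 pM (-0.061 without the libraries apart, with or without the filter, and without control replicate 5) and at 10 nM (-0.041 without control replicate 5). EGFR at 1 µM turned to -0.12 for the largest transcript. ERBB2 at 1 µM turned to 0.033 with 75th percentile scaling (with or without the filter), 0.065 with quantile normalization, 0.046 with the library-size term, 0.011 for the largest transcript, 0.0079 without the libraries apart (with or without the filter), 0.050 without control replicate 3 and 0.060 without 1 µM replicate 5, and it was -0.45 by assembled locus. With 1 library left out, TGFA ran from -0.061 to 0.19 at 100 pM and from -0.041 to 0.31 at 10 nM, and ERBB2 from -0.23 to 0.060 at 1 µM. The causes were not tested.

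Over all genes, calls ranged from 13 to 184 at 10 nM (20 as reported), 129 to 1085 at 1 µM (182), 88 to 714 in the F-test (136) and 242 to 1242 in the trend (369) over the settings that kept all libraries or left out those apart, and, with 1 library left out, 15 to 35, 118 to 365, 101 to 208 and 223 to 1068. Control replicate 5 gave the highest of the last 3 ranges, control replicate 4 the 118, 1 µM replicate 5 the 223, and 10 nM replicates 3 and 4 took 10 nM to 35 and 32. At 1 µM quantile normalization called 532 higher and 553 lower, against 63 and 119 as reported. FPKM without counts limit what can be said of low genes such as EREG.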
